A study of Homo sapiens with 17 samples.

Results

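The genes described here are those of the chemokine system, chosen by name: ligands named CCL or CXCL with a number, receptors named CCR or CXCR with a number, and CX3CL1, CX3CR1, XCL1 and ACKR3. These names matched 62 of the 20218 genes measured. Of the 62, 22 reached at least 1 FPKM (fragments per kilobase of transcript, scaled to the mapped fragments of the library) in at least 2 libraries and are reported. The 22 were 7 of 29 CC ligands, 6 of 13 CXC ligands, 3 of 10 CC receptors, 3 of 6 CXC receptors and 3 of the other 4 genes (CX3CL1, CX3CR1 and ACKR3). Among the 40 genes below the minimum, CCL3L3, CCL4L1 and CXCL9 were listed at 0 in every library. Nearest to the minimum were CCR9 inside it, with a second-highest value of 1.025 FPKM, and CCL27 outside it, with 0.920 FPKM. CCL3L1, CCL7 and XCL1 reached 1 FPKM in only 1 library each. CCL4L2 reached it in only 1 of the 6 groups, and CCL5, CCL20, CCL21, CCR1, CCR9, CX3CR1 and CXCL3 in 2, so that these genes entered through the libraries in which they were high.

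The 17 RNA-seq libraries came from a reporter line made in H9, an established human embryonic stem cell line, in which GFP reports SHOX2, a transcription factor gene of the sinoatrial node. The labels do not name the gene behind the second reporter, mCherry. Differentiated cells were sorted at day 25 and day 40 into GFP+mCherry+ cells (3 libraries at day 25, 2 at day 40), GFP-mCherry+ cells (3 at each day) and GFP-mCherry- cells (3 at each day). All groups share the H9 background and the reporter line, all carry the cell type label of sinoatrial-node-like cells, and all were started with CHIR99021, BMP4 and Activin A. The growth protocol then describes a cardiomyocyte procedure with XAV939 and a sinoatrial procedure with cucurbitacin, retinoic acid, SU5402, XAV939, Tyrphostin AG 490 and chidamide but leaves out by which procedure a given sorted population was made. The labels name a single line and do not say whether the libraries of a group were separate cultures, so the p-values below measure how far these libraries spread, and that spread may be technical.

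Chemokines are small secreted proteins that bind receptors coupled to G proteins and guide the movement of cells along a gradient. CXC ligands with the ELR sequence, such as CXCL1, CXCL2 and CXCL3, act on CXCR2 and draw neutrophils, CCL3 and CCL4 draw myeloid cells and lymphocytes, CCL3 through CCR1 among others, and CX3CL1 acts on CX3CR1, a receptor of monocytes and tissue macrophages. CXCL12 acts on CXCR4, is made by stromal and other supporting cells, and takes part in the forming of the heart and its vessels, while ACKR3 binds and removes it without the usual G protein signal.

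A RefSeq promoter of build GRCh38.p14 was matched to 13 of the 22 genes, and the 120 bases before the transcript start were searched on either strand for an NF-kB motif, for the TATA box TATAAA and for the AP-1 motif TGANTCA. The windows of 4 genes are shown, since they belong to the inducible ligands whose values follow, with the motifs in capitals. CXCL1 and CXCL3 both lie in the CXC cluster of chromosome 4 and share 90.8% of the 120 positions.
CXCL1 (chr4:73869273-73869392, + strand): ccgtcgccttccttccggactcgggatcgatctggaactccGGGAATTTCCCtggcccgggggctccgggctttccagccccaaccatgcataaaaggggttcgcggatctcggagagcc
CXCL3 (chr4:74038690-74038809, - strand): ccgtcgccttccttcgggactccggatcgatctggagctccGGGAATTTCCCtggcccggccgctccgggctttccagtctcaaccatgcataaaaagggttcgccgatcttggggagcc
CCL3 (chr17:36090144-36090263, - strand): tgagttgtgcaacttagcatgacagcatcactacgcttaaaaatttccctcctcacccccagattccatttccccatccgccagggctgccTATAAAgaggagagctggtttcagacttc
CCL20 (chr2:227813722-227813841, + strand): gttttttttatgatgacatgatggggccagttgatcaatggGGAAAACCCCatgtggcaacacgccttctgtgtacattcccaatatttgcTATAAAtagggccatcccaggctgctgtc
The NF-kB motif stood 79 to 69 bases before the start in CXCL1 and CXCL3 and was also found in CXCL2 and CCL20, so that 4 of 13 windows held it, against 4.98% of 35116 promoter windows of the same length. The windows of CXCL1, CXCL2 and CXCL3 are alike and carry the same motif bases, so these matches are not independent. The start used for CXCR5 lay 9626 bases from the nearest GENCODE start, and the others lay 98 bases or less from theirs. The TATA box was found in CCL3 and CCL20 (5.63% of all windows) and the AP-1 motif in CXCL14 (3.34%). These are matches of letters and not measured binding, and binding was not measured in these samples.

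SHOX2 stood at 49.0 to 139 FPKM in the 5 GFP+mCherry+ libraries and at 2.41 FPKM or less in the others. The 10 cardiomyocyte markers summed to 24500 to 37210 FPKM in GFP-mCherry+ cells and 6864 to 17270 in GFP+mCherry+ cells, but to 740 to 3545 in GFP-mCherry- cells, although these carry the same cell type label. Values of a library summed to 566029 to 660085 FPKM, and 12944 to 13793 genes reached 1 FPKM. Libraries 13 (GFP+mCherry+, day 40) and 14 (GFP-mCherry+, day 40) had the fewest genes above 0 (16493 and 16598). Library 8 (GFP-mCherry+, day 25) correlated more with library 11 (GFP-mCherry+, day 40), at an r of 0.981, than with its own group (mean 0.972), and the libraries 1, 11 and 18 also correlated more with a library of another group than, on average, with their own. Library 1 differed from the other GFP+mCherry+ libraries of day 25 in its cardiomyocyte sum (6864 against 15050 and 17270 FPKM). Its endothelial sum was higher (236.8 against 52.5 and 84.4), but KDR made up 213.9 FPKM of it (against 27.4 and 52.3). Of the other endothelial markers, ERG and CLDN5 were highest in library 1, TEK lay between, and CDH5, TIE1, VWF, EGFL7 and EMCN were lowest. Library 1 also held the highest CCL5, CXCL1 and CXCL16 of that group. Below, values in FPKM are given in the order of library number: 1, 4 and 7 for GFP+mCherry+, 2, 5 and 8 for GFP-mCherry+ and 3, 6 and 9 for GFP-mCherry- cells at day 25, then 10 and 13, 11, 14 and 17, and 12, 15 and 18 at day 40. Differences are in log2(FPKM + 1) with the standard error of limma, a scale that understates the change of low genes, and a gene is called where the p-value adjusted by Benjamini-Hochberg over all 14845 genes tested is under 0.05. Where leaving out a single library ended a call, that library is named, and a group left with 1 library is assumed to vary like the others.

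The most abundant of the 22 genes, by the mean of the 6 group means, was CXCL12 at 99.0 FPKM, followed by the scavenging receptor ACKR3 (35.5), the epithelial and stromal ligand CXCL14 (34.1) and the membrane-bound ligand CXCL16 (24.5). CCL3, CCL2, CCL4 and CXCR4 followed, at 8.05 to 9.57 FPKM, and the remaining 14 genes had means of 0.404 to 4.40 FPKM. All 62 genes matched by name summed to the most in GFP+mCherry+ cells (265.8 to 363 FPKM at day 25 and 307 to 460.1 at day 40). They summed to the least in GFP-mCherry+ cells (126 to 162 and 151 to 227). CXCL12 made up 54.4% ± 5.96 (SD, n = 3) of that sum in GFP+mCherry+ cells of day 25 and 31.4% ± 3.62 (n = 2) at day 40. CCL3 made up 0.441% ± 0.120 (n = 3) of it at day 25 and 10.6% ± 2.45 (n = 2) at day 40.

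**Figure D1:**
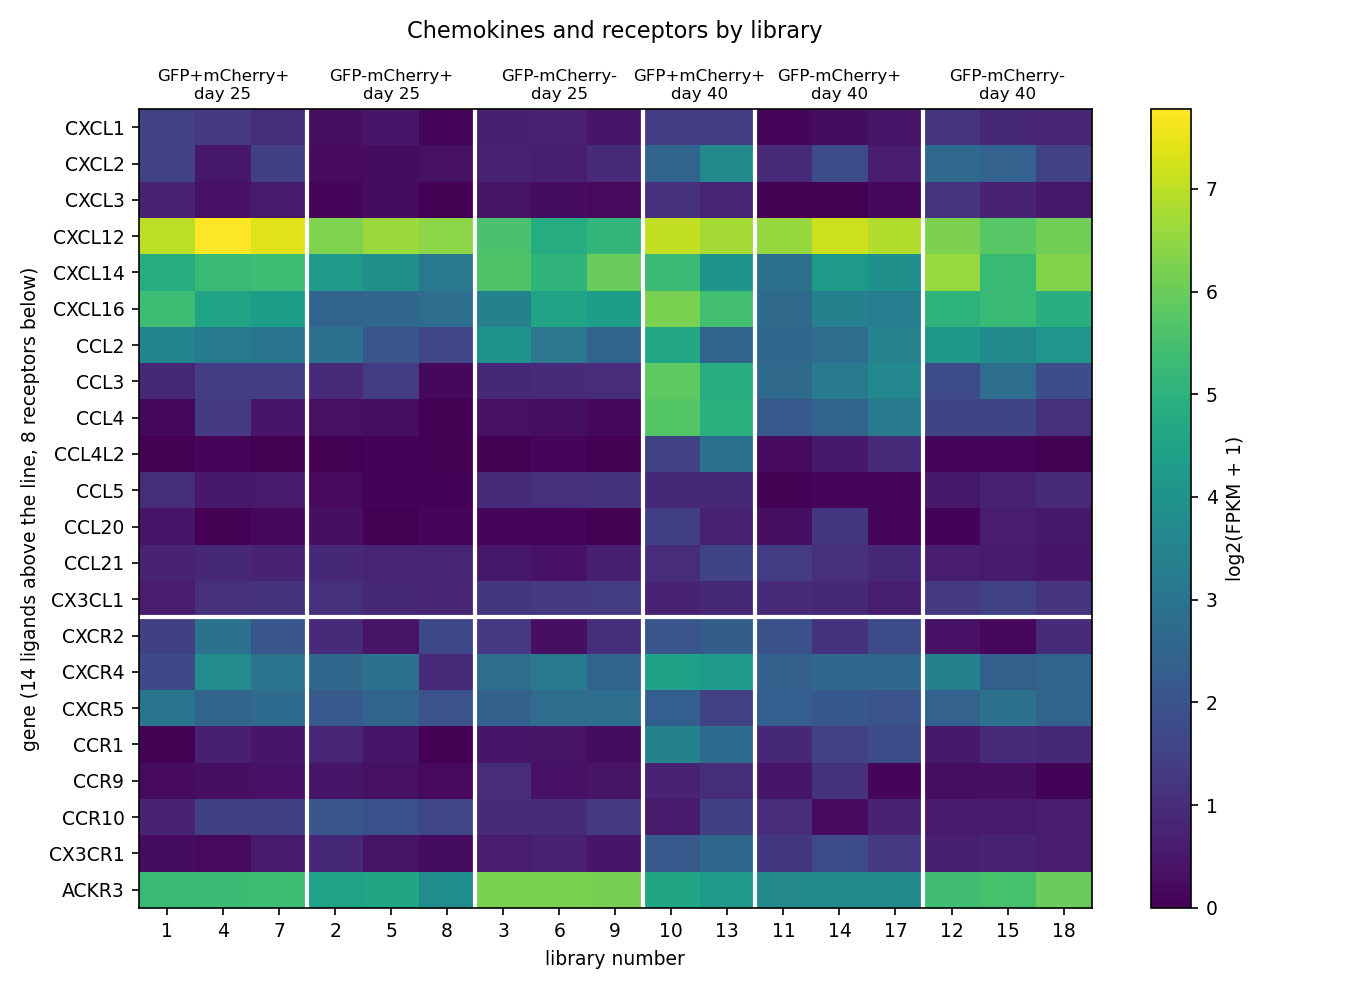
Levels of the 22 genes as log2(FPKM + 1) (colour) in the 17 libraries (columns, grouped by sorted population and day), with 14 ligands above the horizontal line and 8 receptors below it. CXCL12 and ACKR3 are high in every library, and CCL3, CCL4, CCR1 and CX3CR1 are highest in the libraries 10 and 13, the GFP+mCherry+ cells of day 40.

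Between the mCherry+ populations the chemokine genes that differed were higher in GFP+mCherry+ cells. At day 25, 7 of the 22 were called higher and 0 lower by limma (11 and 1 at an unadjusted p under 0.05), where 20.4% of all genes were called (12% higher and 8.38% lower). At day 40, 12 were higher and 0 lower (12 and 0 unadjusted), where 25.5% of all genes were called (16.2% higher and 9.29% lower). The median difference of the 22 genes was 0.49 at day 25 and 0.86 at day 40, against 0.06 and 0.08 over all genes tested. GFP-mCherry+ cells against GFP-mCherry- cells gave 2 higher and 4 lower at day 25 (all genes 28.5% called, 12.1% higher, 16.4% lower) and 6 higher and 8 lower at day 40 (31.9%, 13.3% and 18.5%). GFP+mCherry+ against GFP-mCherry- cells gave 3 higher and 1 lower at day 25 (11.1%, 5.78% and 5.27%) and 8 higher and 1 lower at day 40 (11.8%, 7.04% and 4.76%). These comparisons share groups, so their counts are not independent of each other. CCL4L2, which was tested only because it was high in GFP+mCherry+ cells of day 40, is counted among the 12 and the 8 higher at that day. CCL5 would not have been tested without GFP-mCherry- cells of day 25 and is counted among the 4 lower than these. CXCL3 was tested only through GFP+mCherry+ and GFP-mCherry- cells of day 40 and is counted among the 12 higher and the 8 lower. CCL21 would not have been tested without GFP-mCherry+ cells of day 40 and is counted among the 6 higher. The split over all genes depended on the scaling. With medians of ratios it was 1486 higher and 1525 lower between the mCherry+ populations at day 25, in place of 1779 and 1244, and 2170 and 2022 between GFP-mCherry+ and GFP-mCherry- cells at day 25, in place of 1803 and 2431. Quantile normalization gave 2361 and 2326 between the latter at day 40, in place of 1981 and 2752. With quantile normalization the median of all genes between the mCherry+ populations at day 40 moved by -0.14, and 1830 genes were then called higher and 1835 lower, in place of 2404 and 1379.

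From day 25 to day 40, 6 of the 22 rose and 1 fell in GFP+mCherry+ cells (all genes 4.06% called, 2.18% higher, 1.88% lower). The 6 include CCL4L2, tested only because it was high in these cells at day 40. In GFP-mCherry+ cells 3 rose and 1 fell (4.55%, 0.633% and 3.91%), where quantile normalization moved the split over all genes from 94 higher and 581 lower to 115 and 324. In GFP-mCherry- cells 3 rose and 0 fell (6 and 1 at an unadjusted p under 0.05), where 3.87% of all genes were called, 1.56% higher and 2.32% lower. The change between days of the difference between the mCherry+ populations was called in 0 of the 22 genes by limma (6 higher and 2 lower at an unadjusted p under 0.05) and in 0.0135% of all genes. The same change against GFP-mCherry- cells, a test added after the data were seen, was called in 5 of the 22 and in 1.24% of all genes, and in 0 of the 22 with a pseudocount of 0.1.

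**Figure D2:**
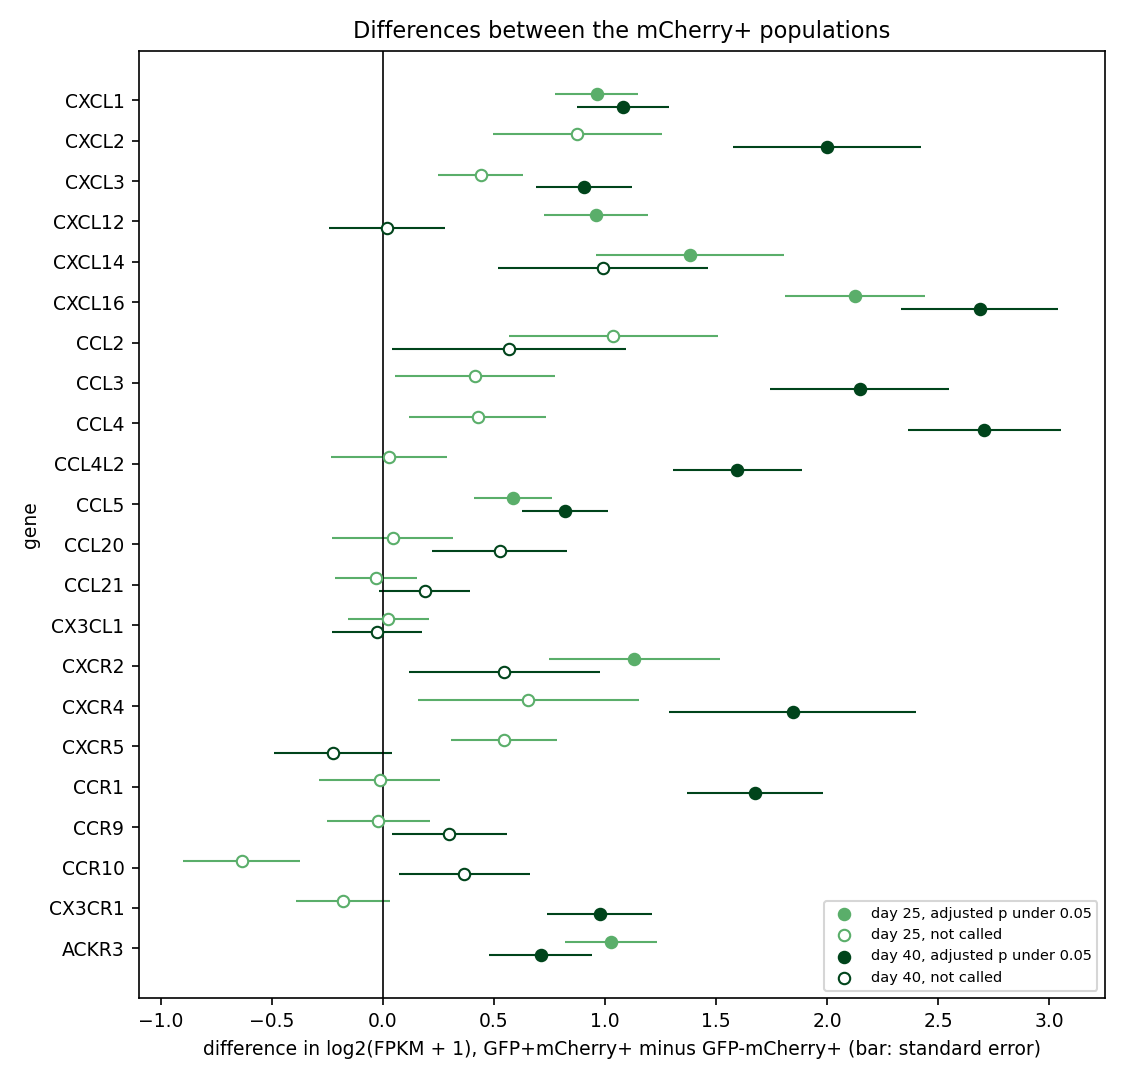
Difference in log2(FPKM + 1) between GFP+mCherry+ and GFP-mCherry+ cells for the 22 genes at day 25 (light green) and day 40 (dark green), with standard errors as bars and filled points for calls. The filled points all lie to the right of 0, with 7 at day 25 and 12 at day 40.

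CCL3 and CCL4, the macrophage inflammatory proteins 1 alpha and beta, were at 1.67 FPKM or less in every library of day 25 and were highest in GFP+mCherry+ cells at day 40. CCL3 (ENSG00000006075, chr17:34415602-34417515 on hg19) stood at 0.833, 1.66 and 1.67 FPKM in GFP+mCherry+, 0.896, 1.60 and 0.111 in GFP-mCherry+ and 0.843, 0.925 and 0.988 in GFP-mCherry- cells at day 25. The values of day 40 were 56.8 and 27.3, then 5.50, 8.44 and 11.4, and lastly 2.48, 6.01 and 2.58 FPKM. The groups of day 25 overlapped, while both GFP+mCherry+ libraries of day 40 lay above every other library. The ratio of the mean of day 40 to that of day 25 was 30.4 in GFP+mCherry+ cells (log2 difference 4.11 ± 0.40, adjusted p = 2.48e-05), 9.72 in GFP-mCherry+ cells (2.37 ± 0.36, adjusted p = 0.00411, and 0.0740 in a fit of these groups alone) and 4.02 in GFP-mCherry- cells, where it was not called (1.21 ± 0.36, adjusted p = 0.0772). At day 40 the GFP+mCherry+ cells exceeded the GFP-mCherry+ cells by 2.15 ± 0.40 (adjusted p = 0.0016) and the GFP-mCherry- cells by 3.19 ± 0.40 (adjusted p = 0.0002). The former difference was 1.63 without library 10 and 2.66 without library 13, called both times. The difference of GFP-mCherry+ over GFP-mCherry- cells (1.04 ± 0.36, adjusted p = 0.0369) had overlapping groups and was no longer called without library 12, 14, 17 or 18 (0.82 to 1.02).

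CCL4 (ENSG00000129277, chr17:34430983-34433014), its neighbour on chromosome 17, stood at 0.112, 1.49 and 0.389 FPKM in GFP+mCherry+, 0.280, 0.234 and 0 in GFP-mCherry+ and 0.283, 0.229 and 0.113 in GFP-mCherry- cells at day 25. By day 40 its level was 50.6 and 29.8, then 3.54, 4.58 and 7.94, and lastly 2.04, 2.03 and 1.13 FPKM. The 3 populations of day 40 did not overlap, in the order GFP+mCherry+, GFP-mCherry+, GFP-mCherry-. The differences at day 40 were 2.71 ± 0.34 between the mCherry+ populations (adjusted p = 0.000187), 3.89 ± 0.34 for GFP+mCherry+ over GFP-mCherry- cells (adjusted p = 1.55e-05) and 1.18 ± 0.31 for GFP-mCherry+ over GFP-mCherry- cells (adjusted p = 0.00825, and 0.0797 with a pseudocount of 0.1). CCL4 rose from day 25 to day 40 in GFP+mCherry+ cells (4.67 ± 0.34, adjusted p = 2.65e-06), in GFP-mCherry+ cells (2.39 ± 0.31, adjusted p = 0.0021) and in GFP-mCherry- cells (1.16 ± 0.31, adjusted p = 0.0467). The rise in GFP-mCherry- cells was no longer called without library 3, 6, 9, 12 or 15 (1.07 to 1.20). The difference between the mCherry+ populations at day 25 was 0.43 ± 0.31 for CCL4 (adjusted p = 0.353) and 0.41 ± 0.36 for CCL3 (adjusted p = 0.449). The change of that difference between days was 2.28 ± 0.46 for CCL4 (adjusted p = 0.104, and called without library 13 at 2.65, adjusted p = 0.0434) and 1.73 ± 0.54 for CCL3 (adjusted p = 0.412), so a larger difference at day 40 than at day 25 was not established between these populations.

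CCL4L2, a near copy of CCL4, shares 10.2% of its 50-base windows with it, and CCL4 shares 20.1% of its own with CCL4L2, so reads may be split between them. CCL4L2 was listed at 0.105 FPKM or less in every library of day 25. Day 40 gave 1.84 and 6.11 FPKM in GFP+mCherry+, 0.166, 0.459 and 0.930 in GFP-mCherry+ and 0.0764, 0.0787 and 0 in GFP-mCherry- cells. Library 13 held the highest value, unlike for CCL3 and CCL4, where library 10 did. CCL4L2 reached 1 FPKM only in GFP+mCherry+ cells of day 40 and so was tested only because it was high there. The differences of that group given next, with their p-values, are therefore a description. The GFP+mCherry+ cells were higher than the GFP-mCherry+ cells by 1.60 ± 0.29 (adjusted p = 0.00138), a value of 0.94 without library 13 and not called in a fit of these groups alone (adjusted p = 0.0591), and higher than the GFP-mCherry- cells by 2.097 ± 0.29 (adjusted p = 0.000368). The rise between days in GFP+mCherry+ cells was 2.12 ± 0.29 (adjusted p = 0.000335, and 0.0560 in a fit of these groups alone). Summed over CCL4, CCL4L1 and CCL4L2 the levels at day 40 were 44.2 ± 11.7 FPKM (SD, n = 2) in GFP+mCherry+, 5.87 ± 2.68 (n = 3) in GFP-mCherry+ and 1.78 ± 0.570 (n = 3) in GFP-mCherry- cells, the same order as for CCL4 alone. CCL3 shares 9.88% of its windows with CCL3L1, and their sum with CCL3L3 was 43.2 ± 21.4, 8.57 ± 3.13 and 3.84 ± 2.03 FPKM in the same groups.

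**Figure D3:**
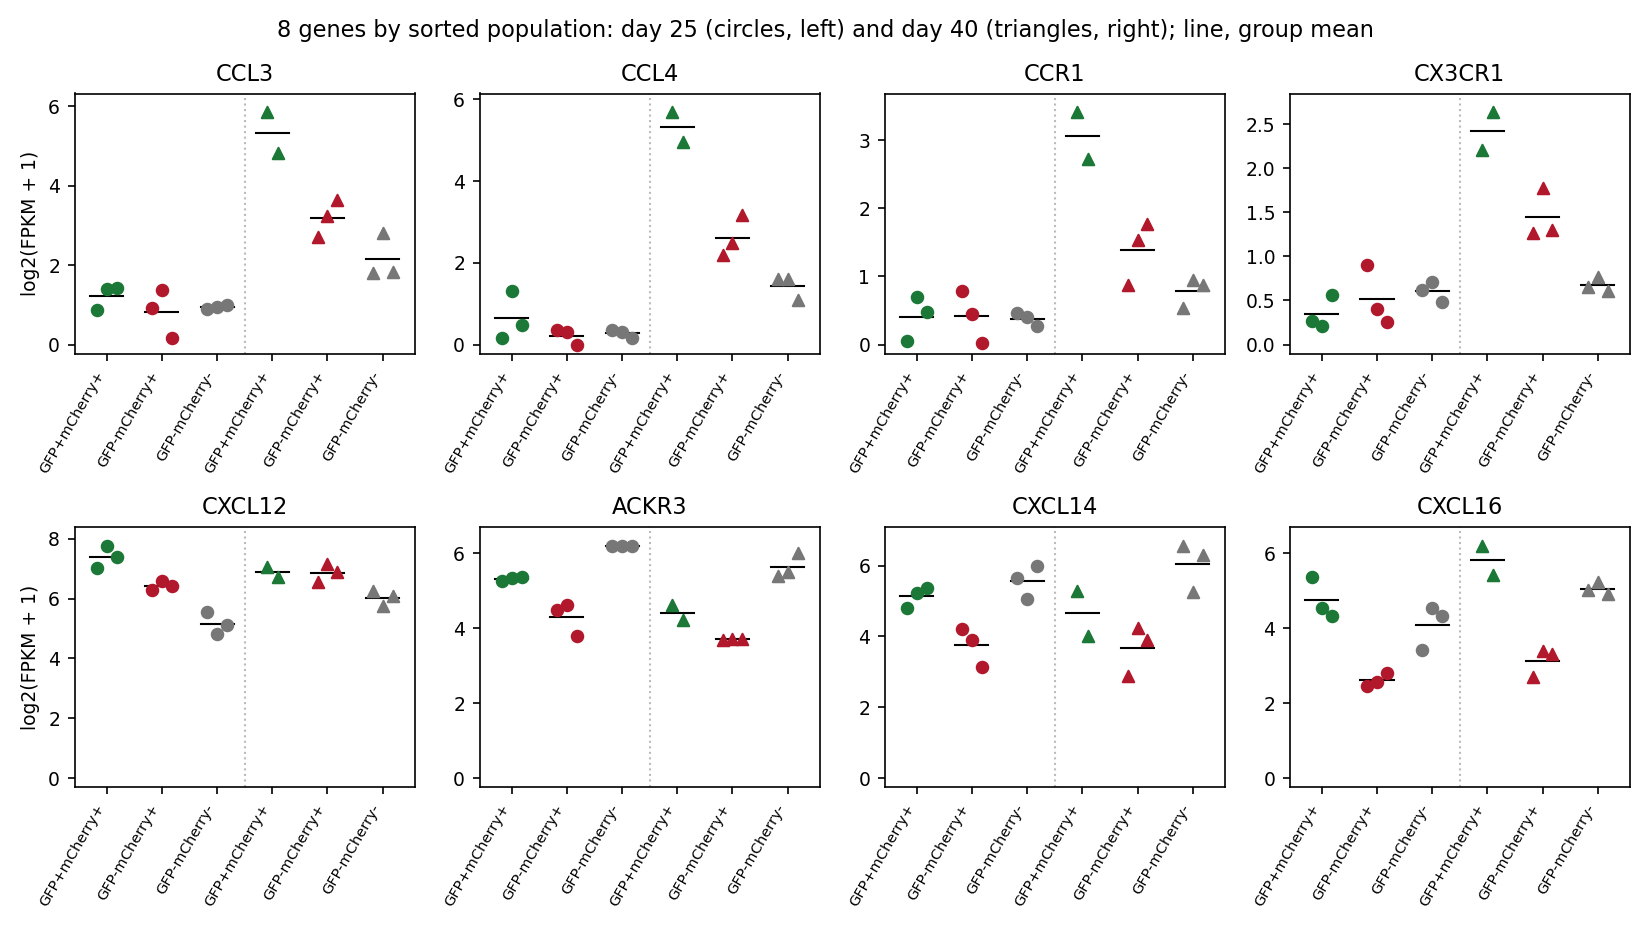
Levels of 8 genes as log2(FPKM + 1) by sorted population, with a point for each library and a line at the group mean, for day 25 (circles) and day 40 (triangles). CCL3, CCL4, CCR1 and CX3CR1 are low in every group of day 25 and highest in GFP+mCherry+ cells of day 40, while ACKR3 and CXCL14 are highest in GFP-mCherry- cells.

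CCR1, a receptor of CCL3 and CCL5, and CX3CR1, the receptor of CX3CL1, were likewise highest in GFP+mCherry+ cells at day 40. CCR1 (chr3:46243200-46249887) was at 0.0326, 0.615 and 0.393 FPKM in GFP+mCherry+ cells at day 25 and at 9.67 and 5.61 at day 40. In GFP-mCherry+ cells it was at 0.731, 0.360 and 0.0164 and then at 0.840, 1.89 and 2.42, and in GFP-mCherry- cells at 0.372, 0.330 and 0.207 and then at 0.450, 0.939 and 0.841 FPKM. Both GFP+mCherry+ libraries of day 40 lay above every other library. Its rise in GFP+mCherry+ cells was 2.67 ± 0.30 (adjusted p = 7.45e-05), and at day 40 they exceeded GFP-mCherry+ cells by 1.68 ± 0.30 (adjusted p = 0.00136, and 0.0556 with a pseudocount of 0.1) and GFP-mCherry- cells by 2.28 ± 0.30 (adjusted p = 0.000293). The locus of CCR1 lies inside that of CCR3, which was at 0.358 FPKM or less.

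CX3CR1 (chr3:39304985-39323226) was at 0.200, 0.156 and 0.472 FPKM in GFP+mCherry+ cells at day 25 and at 3.62 and 5.21 at day 40. In GFP-mCherry+ cells it was at 0.873, 0.325 and 0.191 and then at 1.40, 2.43 and 1.46, and in GFP-mCherry- cells at 0.541, 0.637 and 0.398 and then at 0.568, 0.702 and 0.525 FPKM. The 3 populations overlapped at day 25 and did not overlap at day 40. It rose between days in GFP+mCherry+ cells by 2.08 ± 0.24 (adjusted p = 7.45e-05) and in GFP-mCherry+ cells by 0.92 ± 0.21 (adjusted p = 0.0219), the latter lost without library 5, 8, 14 or 17 (0.76 to 1.00). At day 40 the GFP+mCherry+ cells exceeded the GFP-mCherry- cells by 1.75 ± 0.24 (adjusted p = 0.000325) and the GFP-mCherry+ cells by 0.98 ± 0.24 (adjusted p = 0.00734), the latter not called without library 13 (0.76, adjusted p = 0.118) or with a pseudocount of 0.1. The GFP-mCherry+ cells exceeded the GFP-mCherry- cells by 0.77 ± 0.21 (adjusted p = 0.0112), not called without library 14 (0.61, adjusted p = 0.0514).

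Markers of macrophages and other myeloid cells moved with these genes. Of 16 listed markers 15 were tested, and 15 rose from day 25 to day 40 in GFP+mCherry+ cells (2.18% of all genes did), with the smallest adjusted p-values in LAPTM5 (4.35 ± 0.50), C1QA (3.57 ± 0.41) and CYBB (3.19 ± 0.37). At day 40, 13 were higher in GFP+mCherry+ than in GFP-mCherry+ cells, with a median difference of 1.87 over the list, and 14 were higher than in GFP-mCherry- cells, where 16.2% and 7.04% of all genes were higher. In GFP-mCherry+ cells 9 rose between days, and in GFP-mCherry- cells 0 were called by limma (4 higher at an unadjusted p under 0.05). The 16 markers summed to 31.8, 49.1 and 38.4 FPKM in GFP+mCherry+ cells of day 25 and to 695.7 and 287 at day 40. In GFP-mCherry+ cells they summed to 46.5, 26.9 and 3.00 and then to 85.5, 99.5 and 145, and in GFP-mCherry- cells to 43.7, 36.8 and 37.2 and then to 71.6, 70.2 and 61.0 FPKM. The leukocyte antigen gene PTPRC reached 8.92 FPKM, the receptor gene CSF1R 44.4 and the transcription factor gene SPI1 9.68, while the macrophage receptor gene MRC1 was listed at 0 in 15 of 17 libraries. Library 8, the lowest in this sum, was also the lowest for CCL3, CCR1 and CXCR4. The part of these cells in the chemokine differences was not tested, and in sorted bulk samples more cells of a type and more RNA per cell cannot be told apart. The 10 lymphocyte markers summed to 10.0 FPKM in library 10, which was also highest for CCL3, CCL4 and CCR1, and to 4.50 or less in every other library. NKG7, a granule gene of cytotoxic lymphocytes, made up 8.87 FPKM of the sum of library 10 and was at 1.57 or less elsewhere. CD3E was at 0.125 FPKM or less and MS4A1 was listed at 0 in every library. The part of these cells was not tested either. Of 8 granulocyte and mast cell markers 4 were tested between GFP+mCherry+ and GFP-mCherry+ cells. By limma 1 was higher and 0 lower at day 25 (2 and 1 unadjusted), where 12% of all genes were higher. At day 40, 2 were higher and 0 lower (2 and 0 unadjusted), against 16.2% of all genes higher. CSF3R was higher at each day (2.38 ± 0.27 and 3.17 ± 0.30) and reached 45.9 FPKM. MPO reached 4.02 FPKM in library 3 (GFP-mCherry-, day 25) but was listed at 0 in every GFP+mCherry+ library, and MS4A2 was listed at 0 throughout.

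**Figure D4:**
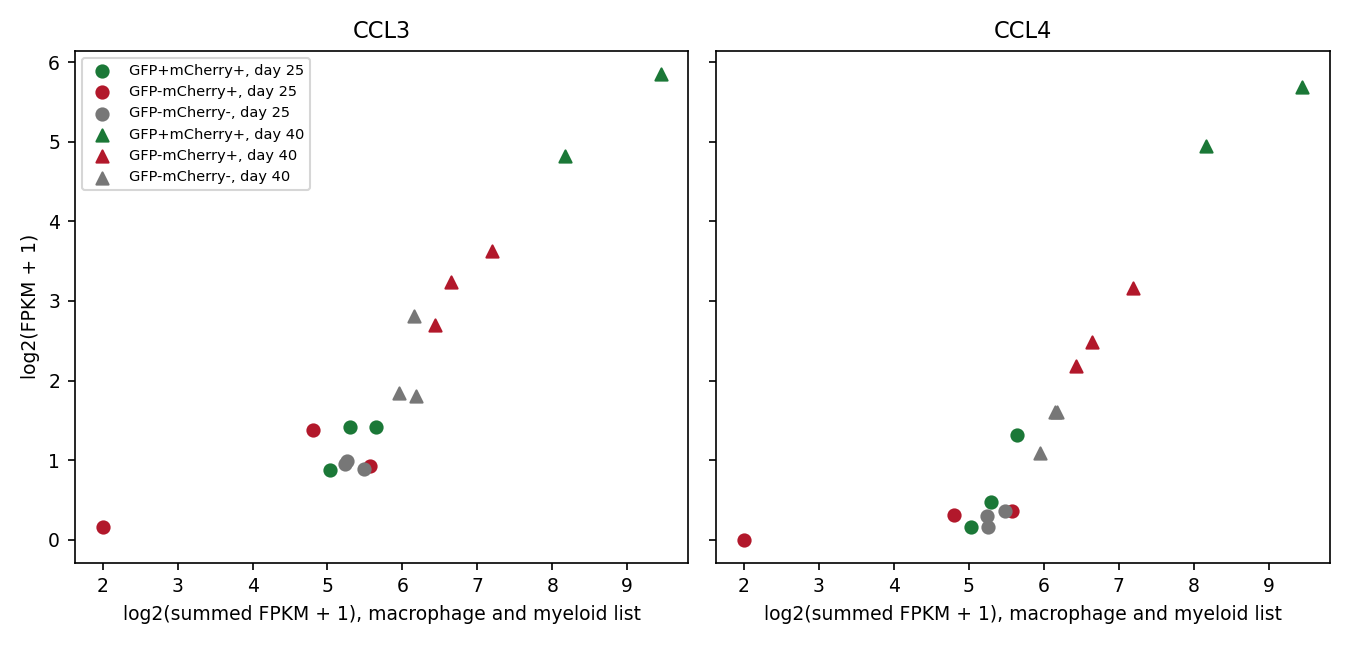
CCL3 (left) and CCL4 (right) as log2(FPKM + 1) against the summed FPKM of 16 macrophage and myeloid markers, also as log2(sum + 1), with a point for each of the 17 libraries. The libraries 10 and 13 (green triangles), with marker sums of 695.7 and 287 FPKM, are highest on both axes, and library 8, at a sum of 3.00 FPKM, is lowest.

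The ELR ligands CXCL1, CXCL2 and CXCL3, whose promoter windows hold the NF-kB motif, had their lowest group means in GFP-mCherry+ cells. CXCL1 (chr4:74735110-74736959) was at 1.84, 1.46 and 1.01 FPKM in GFP+mCherry+, 0.261, 0.396 and 0.0794 in GFP-mCherry+ and 0.609, 0.624 and 0.346 in GFP-mCherry- cells at day 25. In the libraries of day 40 it stood at 1.60 and 1.56, at 0.108, 0.191 and 0.369, and at 1.27, 0.812 and 0.796 FPKM. The 2 mCherry+ populations did not overlap at either day, and no change between days was called. The GFP+mCherry+ cells exceeded the GFP-mCherry+ cells by 0.96 ± 0.19 at day 25 (adjusted p = 0.00277) and by 1.08 ± 0.21 at day 40 (adjusted p = 0.0019). They exceeded GFP-mCherry- cells at day 25 by 0.67 ± 0.19 (adjusted p = 0.0313), a call lost without library 1, 3, 4, 6 or 9 (0.55 to 0.71). The GFP-mCherry+ cells were lower than the GFP-mCherry- cells at day 40 (-0.68 ± 0.19, adjusted p = 0.0114, and 0.0624 with quantile normalization).

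CXCL2 was at 1.84, 0.418 and 1.80 FPKM in GFP+mCherry+, 0.183, 0.205 and 0.281 in GFP-mCherry+ and 0.654, 0.557 and 0.904 in GFP-mCherry- cells at day 25. At day 40 it was at 4.66 and 12.1, at 0.902, 2.44 and 0.527, and at 5.28, 4.49 and 1.82 FPKM. Library 13 held the highest value. The difference between the mCherry+ populations was 2.00 ± 0.42 at day 40 (adjusted p = 0.00337), not called without library 13 (1.39, adjusted p = 0.0943). The rise between days was 1.94 ± 0.42 in GFP+mCherry+ cells (adjusted p = 0.0158), lost without library 4 (1.61) or 13 (1.33), and 1.44 ± 0.38 in GFP-mCherry- cells (adjusted p = 0.0454), lost without library 3, 6, 9, 12 or 15 (1.21 to 1.52). GFP-mCherry+ cells were lower than GFP-mCherry- cells at day 40 by -1.10 ± 0.38 (adjusted p = 0.037), with overlapping groups, and this was lost without library 11, 12, 15 or 17 (-1.01 to -0.85).

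CXCL3 was at 0.659, 0.306 and 0.486 FPKM in GFP+mCherry+, 0.0753, 0.199 and 0 in GFP-mCherry+ and 0.330, 0.191 and 0.159 in GFP-mCherry- cells at day 25. The values of day 40 were 1.16 and 0.757, then 0, 0 and 0.129, and lastly 1.28, 0.691 and 0.403 FPKM. At day 40 the GFP-mCherry+ cells lay below both other populations, which overlapped. They were lower than GFP-mCherry- cells (-0.75 ± 0.19, adjusted p = 0.00697), and GFP+mCherry+ cells were higher than they were (0.91 ± 0.21, adjusted p = 0.00645). CXCL3 reached 1 FPKM only in a library of GFP+mCherry+ (1.16 FPKM) and a library of GFP-mCherry- cells (1.28 FPKM) of day 40. It was thus tested only because it was high in these populations, and both differences are a description. CXCL8, the best known ELR ligand, has the older name IL8 in the table and was not matched by the names used here. IL8 was at 30.1 and 23.4 FPKM in GFP+mCherry+ and 1.80, 5.47 and 11.4 in GFP-mCherry+ cells at day 40, and at 1.14 FPKM or less in every library of day 25. Its differences at day 40 were 2.18 ± 0.44 over GFP-mCherry+ cells (adjusted p = 0.00263) and 3.31 ± 0.44 over GFP-mCherry- cells (adjusted p = 0.000293).

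CXCR2, the receptor of these ligands, varied widely within groups. It was at 1.76, 6.54 and 3.19 FPKM in GFP+mCherry+, 0.952, 0.321 and 2.21 in GFP-mCherry+ and 1.44, 0.259 and 1.03 in GFP-mCherry- cells at day 25. By day 40 its level was 3.16 and 3.86, then 2.77, 1.21 and 2.504, and lastly 0.289, 0.132 and 0.897 FPKM. The mCherry+ populations overlapped at day 25 and not at day 40, and both lay above GFP-mCherry- cells at day 40. Between the mCherry+ populations the difference at day 40 was not called by limma (0.55 ± 0.43, adjusted p = 0.3755). The called differences at day 25 were 1.13 ± 0.38 over GFP-mCherry+ cells (adjusted p = 0.0476), lost without library 2, 4, 5 or 7 (0.75 to 1.17), and 1.27 ± 0.38 over GFP-mCherry- cells (adjusted p = 0.0442), lost without library 3, 4, 6, 7 or 9 (0.89 to 1.47). At day 40 GFP+mCherry+ cells exceeded GFP-mCherry- cells by 1.68 ± 0.43 (adjusted p = 0.0195), lost without library 13 (1.57) or 15 (1.52), and GFP-mCherry+ cells did so by 1.13 ± 0.38 (adjusted p = 0.0339), lost without library 11, 12, 15 or 17 (0.98 to 1.07).

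CXCL12 (ENSG00000107562, chr10:44793038-44881941), the ligand of CXCR4 and ACKR3, was high in every library and lowest in GFP-mCherry- cells. It was at 128, 218 and 166 FPKM in GFP+mCherry+, 76.6, 95.7 and 84.9 in GFP-mCherry+ and 46.1, 27.2 and 33.5 in GFP-mCherry- cells at day 25. Day 40 gave 133 and 104, then 93.2, 144 and 118, and lastly 75.3, 52.6 and 67.4 FPKM. The 3 populations did not overlap at day 25, while at day 40 the mCherry+ populations overlapped and both lay above GFP-mCherry- cells. At day 25 GFP+mCherry+ cells exceeded GFP-mCherry+ cells by 0.96 ± 0.23 (adjusted p = 0.0101) and GFP-mCherry- cells by 2.23 ± 0.23 (adjusted p = 3.08e-05), and GFP-mCherry+ cells exceeded GFP-mCherry- cells by 1.27 ± 0.23 (adjusted p = 0.000743). At day 40 the difference between the mCherry+ populations was 0.02 ± 0.26 (adjusted p = 0.97). GFP-mCherry- cells were then exceeded by 0.86 ± 0.26 in GFP+mCherry+ cells (adjusted p = 0.0432), lost without library 10, 13, 15 or 18 (0.69 to 1.03), and by 0.84 ± 0.23 in GFP-mCherry+ cells (adjusted p = 0.012), lost without library 14 (0.69) or 15 (0.70). CXCL12 rose between days in GFP-mCherry- cells (0.87 ± 0.23, adjusted p = 0.0495), lost without library 6, 9, 12, 15 or 18 (0.70 to 1.01).

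ACKR3 (ENSG00000144476, chr2:237476430-237491001), the scavenging receptor of CXCL12, had another order, being highest in GFP-mCherry- and lowest in GFP-mCherry+ cells. It was at 37.3, 39.6 and 40.3 FPKM in GFP+mCherry+, 21.5, 23.4 and 12.8 in GFP-mCherry+ and 72.4, 72.9 and 72.3 in GFP-mCherry- cells at day 25. In the libraries of day 40 it stood at 23.4 and 17.7, at 11.8, 12.2 and 12.2, and at 41.4, 44.3 and 63.2 FPKM. No populations overlapped at either day, and ACKR3 was called in all 6 comparisons of populations. GFP-mCherry+ cells were lower than GFP-mCherry- cells by -1.90 ± 0.21 at day 25 (adjusted p = 8.58e-06) and -1.93 ± 0.21 at day 40 (adjusted p = 1.08e-05). GFP+mCherry+ cells lay between them, below GFP-mCherry- cells (-0.88 ± 0.21, adjusted p = 0.0129, and -1.22 ± 0.23, adjusted p = 0.00335) and above GFP-mCherry+ cells (1.03 ± 0.21, adjusted p = 0.00355, and 0.71 ± 0.23, adjusted p = 0.0335). The last was lost without library 10, 11, 13 or 17 (0.52 to 0.90), and the difference from GFP-mCherry- cells at day 40 without library 13 (-1.03, adjusted p = 0.0634). ACKR3 fell between days in GFP+mCherry+ cells (-0.91 ± 0.23, adjusted p = 0.0374), lost without library 4, 7 or 13 (-0.90 to -0.71). The ratio of CXCL12 to ACKR3, both in FPKM, was 4.35 ± 1.06 (SD, n = 3) in GFP+mCherry+, 4.76 ± 1.64 in GFP-mCherry+ and 0.491 ± 0.134 in GFP-mCherry- cells at day 25, and 5.79 ± 0.173 (n = 2), 9.79 ± 1.94 (n = 3) and 1.36 ± 0.405 (n = 3) at day 40.

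CXCR4 (chr2:136871919-136875735), the signalling receptor of CXCL12, was at 2.25, 12.5 and 6.90 FPKM in GFP+mCherry+, 5.15, 6.71 and 0.885 in GFP-mCherry+ and 5.88, 7.81 and 4.67 in GFP-mCherry- cells at day 25. At day 40 it was at 20.7 and 18.9, at 4.23, 5.09 and 5.07, and at 9.64, 4.10 and 4.67 FPKM. The populations overlapped at day 25, and both GFP+mCherry+ libraries of day 40 lay above all others. The difference between the mCherry+ populations at day 40 was 1.84 ± 0.56 (adjusted p = 0.0234), lost without library 10, 11 or 13 (1.77 to 1.91). The difference from GFP-mCherry- cells (1.62 ± 0.56, adjusted p = 0.0689) and the change between days in GFP+mCherry+ cells (1.56 ± 0.56, adjusted p = 0.126) were not called.

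CXCL16, the ligand of CXCR6 and also a scavenger receptor of oxidised lipoproteins, was lowest in GFP-mCherry+ cells at each day. CXCL16 (ENSG00000161921, chr17:4636821-4643217) was at 40.1, 22.1 and 19.3 FPKM in GFP+mCherry+, 4.52, 4.95 and 6.03 in GFP-mCherry+ and 9.76, 22.3 and 19.1 in GFP-mCherry- cells at day 25. The values of day 40 were 73.0 and 41.8, then 5.45, 9.50 and 8.86, and lastly 31.5, 36.7 and 29.04 FPKM. No library of GFP-mCherry+ cells overlapped with either other population of its day. GFP+mCherry+ cells exceeded them by 2.13 ± 0.32 at day 25 (adjusted p = 0.000598) and 2.69 ± 0.35 at day 40 (adjusted p = 0.000201), a ratio of means of 5.25 and 7.24. GFP-mCherry+ cells were lower than GFP-mCherry- cells by -1.48 ± 0.32 (adjusted p = 0.00221) and -1.93 ± 0.32 (adjusted p = 0.00029). Its receptor gene CXCR6 was below the minimum, at 0.364 FPKM or less, and its locus lies inside that of FYCO1.

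CXCL14, an orphan ligand of epithelium and stroma, was at 26.9, 36.6 and 40.4 FPKM in GFP+mCherry+, 17.3, 14.0 and 7.88 in GFP-mCherry+ and 49.1, 32.5 and 62.6 in GFP-mCherry- cells at day 25. By day 40 its level was 38.1 and 15.3, then 6.30, 17.8 and 13.8, and lastly 93.7, 37.4 and 78.0 FPKM. The GFP-mCherry+ cells lay below the GFP-mCherry- cells at each day, by -1.81 ± 0.42 at day 25 (adjusted p = 0.00422) and -2.38 ± 0.42 at day 40 (adjusted p = 0.000544). They lay below GFP+mCherry+ cells at day 25 (1.38 ± 0.42, adjusted p = 0.0308), lost without library 4, 5, 7 or 8 (1.08 to 1.46), and overlapped with them at day 40 (0.99 ± 0.47, adjusted p = 0.136).

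CCL5, a ligand of CCR1 and CCR3, was low and nearly absent from GFP-mCherry+ cells. It was at 1.04, 0.452 and 0.463 FPKM in GFP+mCherry+, 0.138, 0.0650 and 0.0586 in GFP-mCherry+ and 0.897, 1.06 and 1.18 in GFP-mCherry- cells at day 25. Day 40 gave 0.877 and 0.862, then 0.0261, 0.0750 and 0.0753, and lastly 0.412, 0.657 and 0.885 FPKM. No GFP-mCherry+ library reached the lowest library of either other population. GFP+mCherry+ cells exceeded them by 0.59 ± 0.17 at day 25 (adjusted p = 0.0272), lost without library 1, 2, 5 or 8 (0.42 to 0.62), and by 0.82 ± 0.20 at day 40 (adjusted p = 0.00666, and 0.0525 without the libraries 13 and 14). GFP-mCherry+ cells were lower than GFP-mCherry- cells by -0.91 ± 0.17 (adjusted p = 0.00101) at day 25 and -0.63 ± 0.17 (adjusted p = 0.0118) at day 40, the latter lost without library 18 (-0.53). CCL5 reached 1 FPKM only in library 1 and in GFP-mCherry- cells of day 25 (1.06 and 1.18 FPKM). It would not have been tested without that group, so the difference from that group at day 25 is a description.

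In the comparisons with GFP-mCherry+ cells, markers of stroma moved with CXCL14, CXCL16, CCL5 and the ELR ligands, and markers of heart muscle moved in the opposite direction. Of 8 fibroblast markers, 5 were higher in GFP+mCherry+ than in GFP-mCherry+ cells at day 25 and 6 at day 40, and 7 were lower in GFP-mCherry+ than in GFP-mCherry- cells at each day. The 8 markers summed to 2922 to 4043 FPKM in GFP-mCherry+, 8532 to 14170 in GFP+mCherry+ and 7155 to 8740 in GFP-mCherry- cells at day 25, and to 1978 to 7326, 11380 to 12380 and 11280 to 23090 at day 40. Over all genes 12% were higher at day 25 and 16.2% at day 40 in the former comparison, and 16.4% and 18.5% lower in the latter. Of 10 cardiomyocyte markers 6 were lower in GFP+mCherry+ than in GFP-mCherry+ cells at day 25 and 8 at day 40, against 8.38% and 9.29% of all genes. Endothelial markers were lower in GFP-mCherry+ than in GFP-mCherry- cells in 7 of 8 at day 25 and 6 of 8 at day 40, and 9 of 10 epithelial and 7 of 8 epicardial markers were lower at each day. Fewer of these markers differed between the mCherry+ populations. In GFP+mCherry+ cells 3 of 8 endothelial, 6 of 10 epithelial and 3 of 8 epicardial markers were higher at day 25. At day 40, 3 of 8, 1 of 10 and 2 of 8 were higher, and 1 epithelial marker was lower. Their part in these results was not tested.

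CCL21, a ligand of CCR7, was at 0.999 and 1.95 FPKM in GFP+mCherry+, 1.54, 1.07 and 0.837 in GFP-mCherry+ and 0.552, 0.492 and 0.374 in GFP-mCherry- cells at day 40, and at 0.667, 0.828 and 0.720, at 0.835, 0.762 and 0.735, and at 0.418, 0.304 and 0.597 FPKM at day 25. The mCherry+ populations lay above GFP-mCherry- cells at day 40, by 0.72 ± 0.21 in GFP+mCherry+ cells (adjusted p = 0.0327), lost without library 13, 15 or 18 (0.44 to 0.73), and by 0.54 ± 0.18 in GFP-mCherry+ cells (adjusted p = 0.0361), lost without library 11, 12, 14, 15 or 18 (0.41 to 0.57). CCL21 reached 1 FPKM only in the libraries 11, 13 and 14. It would not have been tested without GFP-mCherry+ cells of day 40, so the difference of these cells from GFP-mCherry- cells is a description. CX3CL1, the membrane-bound ligand of CX3CR1, was at 0.551, 1.13 and 1.21 FPKM in GFP+mCherry+, 1.13, 0.826 and 0.789 in GFP-mCherry+ and 1.38, 1.45 and 1.61 in GFP-mCherry- cells at day 25, and at 0.666 and 0.825, at 0.930, 0.831 and 0.582, and at 1.49, 1.88 and 1.30 FPKM at day 40. It was highest in GFP-mCherry- cells, and the difference of GFP-mCherry+ cells from them at day 40 (-0.52 ± 0.18, adjusted p = 0.0386) was lost without library 12, 14, 15 or 17 (-0.54 to -0.43).

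CCR10, a receptor of CCL27 and CCL28, was at 0.696, 1.76 and 1.72 FPKM in GFP+mCherry+, 3.16, 2.70 and 2.11 in GFP-mCherry+ and 0.907, 0.960 and 1.44 in GFP-mCherry- cells at day 25. In the libraries of day 40 it stood at 0.482 and 1.78, at 0.970, 0.173 and 0.689, and at 0.474, 0.464 and 0.530 FPKM. The GFP-mCherry+ cells of day 25 lay above all other groups. They exceeded GFP-mCherry- cells by 0.80 ± 0.26 (adjusted p = 0.0325), lost without library 2, 3, 5 or 6 (0.70 to 0.78), and fell by 1.21 ± 0.26 to day 40 (adjusted p = 0.0178), lost without library 2, 5, 14 or 17 (-1.26 to -0.99). The locus of CCR10 overlaps that of CNTNAP1 in 1305 of 5029 bases, and the strand setting of the counting is not given in the sources used here, so its values are uncertain.

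No comparison of populations was called for CCL2, CCL20, CXCR5 or CCR9. The monocyte ligand CCL2 ranged from 2.14 (library 8) to 23.6 FPKM (library 10), and its 2 GFP+mCherry+ libraries of day 40 differed widely, at 23.6 and 4.51 FPKM. CCL20, the ligand of CCR6, ranged from 0 to 1.73 FPKM, with the highest value in library 10. CXCR5 ranged from 1.86 to 7.09 FPKM and CCR9 from 0.0590 to 1.18. CXCR5 overlaps BCL9L in 3925 of 14034 bases and CCR9 lies wholly inside LZTFL1, which had a median of 16.3 FPKM, so reads of these genes may not be told apart.

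Genes that act with the chemokines were read from lists. Of 24 tested genes of receptor signalling, 9 were higher in GFP+mCherry+ than in GFP-mCherry+ cells at day 40 and 0 lower by limma (11 and 0 at an unadjusted p under 0.05), where 16.2% of all genes were higher, with a median of 0.29 against 0.08 over all genes. The smallest adjusted p-values were those of PIK3R5, a regulatory subunit of the kinase that G proteins activate (1.84 ± 0.21), DOCK2, the exchange factor of leukocyte migration (1.39 ± 0.26), VAV1 (0.99 ± 0.23) and ELMO1, the partner of DOCK2 (3.23 ± 0.75). PIK3R5 reached 1 FPKM only in GFP+mCherry+ cells of day 40 (4.38 and 3.47 FPKM). VAV1 did so only there and in a library of GFP-mCherry+ cells of that day (1.42 FPKM). Both were thus tested only because they were high in GFP+mCherry+ cells of day 40. They are counted among the 9, and their differences are a description. RGS1, which ends G protein signals in leukocytes, was at 94.8 and 60.7 FPKM in GFP+mCherry+ and 9.46, 15.0 and 26.0 in GFP-mCherry+ cells at day 40, and at 6.88 FPKM or less in every library of day 25. It rose between days by 3.81 ± 0.53 in GFP+mCherry+ cells (adjusted p = 0.000354). At day 25, 4 of the 24 were higher and 2 lower between the mCherry+ populations, near the share of all genes (12% and 8.38%), with the smallest adjusted p in RAC2, a GTPase of blood cells (2.01 ± 0.44).

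Of 23 tested genes of NF-kB signalling and inflammatory cytokines, 12 were higher and 1 lower in GFP+mCherry+ than in GFP-mCherry+ cells at day 40, where 16.2% of all genes were higher and 9.29% lower. The inhibitor TNFAIP3 (3.22 ± 0.44), the adhesion molecule ICAM1 (2.27 ± 0.29), the receptor TLR2 (1.84 ± 0.27) and, in the other direction, VCAM1 (-2.41 ± 0.35) had the smallest adjusted p. At day 25, 4 were higher and 1 lower, near the share of all genes (12% and 8.38%). Between days 6 rose and 0 fell by limma in GFP+mCherry+ cells (11 and 0 unadjusted), where 2.18% of all genes rose, among them TLR2 (2.39 ± 0.27) and the cytokine gene IL1B (2.72 ± 0.38). IL1B was at 14.3 and 20.1 FPKM in GFP+mCherry+ and 1.49, 4.97 and 3.71 in GFP-mCherry+ cells at day 40. Of 13 tested genes that cleave, hold or bind chemokines, 4 were higher and 0 lower at day 40 by limma (7 and 2 unadjusted), where 25.5% of all genes were called, with the smallest adjusted p in DPP4, the peptidase that cuts CXCL12 (3.57 ± 0.65), which was at 70.4 and 75.4 FPKM against 2.96, 14.4 and 3.00. Of 14 tested interferon genes 4 were higher and 0 lower at day 40 by limma (4 and 0 unadjusted), where 16.2% of all genes were higher. Between the same populations at day 25, 6 of the 14 were higher and 0 lower (7 and 0 unadjusted), where 12% of all genes were higher. CXCL9, CXCL10 and CXCL11, the ligands that interferon induces, stayed at 0.571 FPKM or less in every library.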

How the data were processed

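RNA-seq was analysed in 17 libraries of sorted H9-derived cells in 6 groups by population and day, taken from the labels. The unit of the deposited values was read as FPKM, which the authors obtained from Cufflinks 2.1.1, since the column names give none. Per the submitters' processing notes, STAR 2.5.2b, bcl2fastq 2.19 and cutadapt were also used, on build hg19; the strand setting and depth are not given in the sources used here. Per the labels' protocols, a TruSeq kit was used for the libraries.

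Rows of a name were summed (20368 rows, 20218 genes). Group means were fitted to log2(FPKM + 1) of 14845 genes (at least 1 FPKM in at least 2 libraries) with limma 3.58.1 in R 4.3.3 (eBayes with trend, 11 residual degrees of freedom), with Benjamini-Hochberg adjustment within a comparison over all genes tested and a threshold of 0.05. The fit was tested on simulated data. Each of the 22 genes is named; of each list up to 4 genes with the smallest adjusted p, and RGS1, IL1B, RAC2, CSF3R and the marker genes given by their highest values were chosen after their values were seen. The members and lists were chosen with earlier results of these data known.

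Alternatives were a pseudocount of 0.1, quantile normalization, a filter at 5 FPKM, no filter, only the compared groups, scaling by medians of ratios, a block of libraries with consecutive numbers, values listed at 0 set to missing (41 values in 33 genes, 0 among the members), the libraries 13 and 14 left out, each library left out, and, added after the data were seen, the libraries 8 and 11 left out. Genome positions of genes are on hg19 from the deposited table, whose starts count from 0 and were moved by 1 base. Promoters come from RefSeq and GRCh38.p14; GENCODE v29 transcripts served to compare near copies.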

Additional observations from a re-analysis of the deposited data

Results flagged for a closer look

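In 5 genes the difference between GFP+mCherry+ and GFP-mCherry- cells changed between day 25 and day 40, in an interaction test of limma that was added after the data were seen. The change, in log2(FPKM + 1), was 2.90 ± 0.54 for CCL3 (adjusted p = 0.0145), 3.51 ± 0.46 for CCL4 (adjusted p = 0.00181), 2.08 ± 0.39 for CCL4L2 (adjusted p = 0.0145), 2.25 ± 0.41 for CCR1 (adjusted p = 0.0126) and 2.01 ± 0.32 for CX3CR1 (adjusted p = 0.00561). CCL4L2 reached 1 FPKM only in GFP+mCherry+ cells of day 40 and so was tested only because it was high there, and its value is a description. With a pseudocount of 0.1 in place of 1 none of the 5 was called (0 of 5 genes). Without library 10 the calls of CCL3 (2.38, adjusted p = 0.0629) and CCR1 (1.91, adjusted p = 0.0555) were lost, and without library 13 the value of CCL4L2 was 1.42. At day 25 the same populations did not differ beyond the threshold in any of these genes (adjusted p = 0.472 to 0.985). The same markers of myeloid cells named in the report rose in these libraries, and their part was not tested.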

How the results depend on the processing

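Of 71 called differences of the 22 genes, 30 kept their call and direction in every alternative that gave a value, 41 lost it in at least 1 (31 of them without a single library), and 0 reversed. The cause of these losses was not tested. A pseudocount of 0.1 left 2 calls of 4 for GFP+mCherry+ against GFP-mCherry- cells at day 25, 1 of 3 between days in GFP-mCherry- cells and 0 of 5 for the change against GFP-mCherry- cells. Without a filter 1 of 3 was left between days in GFP-mCherry- cells. With a filter at 5 FPKM only 11 members were tested, and 4 calls of 7 and 7 of 12 were left between the mCherry+ populations at day 25 and day 40, 7 of 14 for GFP-mCherry+ against GFP-mCherry- cells at day 40, 2 of 4 and 5 of 9 for GFP+mCherry+ against GFP-mCherry- cells, 2 of 4 and 0 of 3 between days in GFP-mCherry+ and GFP-mCherry- cells, and 2 of 5 for the change. For GFP+mCherry+ against GFP-mCherry- cells at day 25, quantile normalization gave 2 and a fit of the compared groups alone gave 2; such a fit gave 4 of 7 between days in GFP+mCherry+ and 1 of 4 in GFP-mCherry+ cells. Without the libraries 13 and 14, 2 of 4 were left between days in GFP-mCherry+ cells. Leaving out a library at a time gave 4 to 6 and 8 to 13 calls between the mCherry+ populations at day 25 and day 40, 5 to 6 and 9 to 12 for GFP-mCherry+ against GFP-mCherry- cells, 2 to 3 and 5 to 10 for GFP+mCherry+ against GFP-mCherry- cells, 5 to 8, 2 to 5 and 0 to 2 between days in GFP+mCherry+, GFP-mCherry+ and GFP-mCherry- cells, 0 to 1 for the change between the mCherry+ populations and 3 to 6 for the change against GFP-mCherry- cells. The labels give no replicate numbers that groups share. With a block of libraries with consecutive numbers, which the labels do not say belong together, 7 calls were lost: CXCR2 in both comparisons of GFP+mCherry+ cells at day 25, CCR10 at day 25 and CCL3 at day 40 between GFP-mCherry+ and GFP-mCherry- cells, CCL21 in both comparisons with GFP-mCherry- cells at day 40, and CXCL12 in that of GFP+mCherry+ cells. Read depth was not used here, so what it limits in the low genes cannot be given.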
